A study of Rattus norvegicus with 9 samples.

Results

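The contractile proteins of smooth muscle were followed through 10 genes: Acta2, Myh11, Tagln, Cnn1, Mylk, Lmod1, Smtn, Cald1, Synpo2 and Myl9. They were chosen by symbol from a table of 32623 rat genes, and each symbol had 1 row. All 10 passed the filter on low values, which kept the 11197 genes that reached 1 FPKM in 3 or more libraries. FPKM is the read count divided by exon length and library size.

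The RNA came from primary rat aortic smooth muscle cells of wild-type genotype, in 9 libraries of 3 groups with 3 libraries each. Control cells received DMSO alone. PDGF-BB cells received platelet-derived growth factor BB for 24 h, at 10 ng/mL in the sample labels and 20 ng/mL in the series design. PDGF-BB+PTUPB cells received 0.5 µM PTUPB, a dual inhibitor of cyclooxygenase-2 and soluble epoxide hydrolase, 2 h ahead of that growth factor. All groups were grown in 20% serum, deprived of it for 12 h, treated in 2% serum and used at passages 4 to 8.

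Smooth muscle contracts when a rise in calcium activates myosin light chain kinase, which phosphorylates the regulatory light chain so that myosin pulls on actin. Caldesmon, calponin and transgelin bind the actin filament, and leiomodin, smoothelin and synaptopodin-2 belong to its assembly and anchoring. Many of these genes carry binding sites for serum response factor and its coactivator myocardin, and their loss is the usual sign that a cultured smooth muscle cell has left its contractile state.

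Counts summed to between 12729187 and 16911050 per library. Control replicate 2 was the lowest Control library for all 10 genes, by a median log2 difference of -0.42 from the other Control libraries, while it was lowest for 38.4% of all tested genes. In it and in PDGF-BB replicate 3, long genes gave lower values than in the other libraries of the group, with Spearman correlations across genes of -0.39 and -0.38 between deviation and exonic length. Genes in a library are not independent, so these values are descriptions. Nothing in the labels ties the libraries of a group to separate cultures or animals, and the spread behind each p-value may therefore be technical.

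Of the smooth muscle markers used to check the cell label, Acta2, Tagln, Cnn1, Smtn, Lmod1 and Myh11 were read in every library. All of these are among the 10 genes followed here, so they give no check from outside that set. Desmin (Des) was under 1 FPKM in every library, and myocardin (Myocd) averaged 0.60, 0.77 and 0.46 FPKM in Control, PDGF-BB and PDGF-BB+PTUPB. Markers of adventitial fibroblasts were abundant, 9 of 10 having a row, and their summed level was 1518 to 2544 FPKM in Control, 999 to 1395 in PDGF-BB and 1582 to 1829 in PDGF-BB+PTUPB. Of that list Dpt and Cd34 were under 1 FPKM throughout. Of 8 endothelial markers with a row, 5 had 0 counts (Cdh5, Cldn5, Emcn, Kdr and Tie1), and the leukocyte marker Ptprc also had 0. Egfl7, the 1 endothelial marker that passed the filter, averaged 12.4, 13.3 and 16.1 FPKM in Control, PDGF-BB and PDGF-BB+PTUPB. The macrophage markers Cd68 (3.16, 3.60 and 3.16 FPKM in that order) and Lyz2 (2.03, 0.61 and 1.81) were also read.

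Per exon length, transgelin led the order of levels and the smooth muscle myosin heavy chain stood near its end. In Control, Tagln averaged 1299 ± 204 FPKM (SD, n = 3), Acta2 659 ± 113, Cald1 614 ± 149, Myl9 270.2 ± 26.6 and Cnn1 65.2 ± 14.6. Below them came Smtn at 37.8 ± 6.84, Mylk at 29.4 ± 3.74, Lmod1 at 17.5 ± 3.14, Myh11 at 5.99 ± 0.70 and Synpo2 at 2.15 ± 0.29 FPKM. Among neighbours in this order, the ranges of Acta2 and Cald1 overlapped in Control, from 556 to 780 and from 458 to 754 FPKM, as did those of Smtn and Mylk. With PDGF-BB the order was the same down to Lmod1, but Synpo2 (3.21 ± 0.071) and Myh11 (3.05 ± 0.53) had changed places, with overlapping ranges. With PTUPB the order of Control returned, and Tagln stood at 1596 ± 115 against 4.32 ± 0.17 FPKM for Myh11.

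With PDGF-BB, one part of the contractile set fell and another did not pass the test. Compared with Control, Acta2, Myh11, Mylk, Lmod1 and Cald1 fell and Synpo2 rose, while Tagln, Cnn1, Smtn and Myl9 did not pass the test (edgeR, Benjamini-Hochberg adjusted p under 0.05). Thus 5 of 10 were called lower and 1 higher, against 15.8% lower and 17.3% higher among all tested genes. Without Control replicate 1, 3 were called lower (Acta2, Myh11 and Mylk) and 0 higher, against 12.2% and 14.0% of all tested genes. The median log2 change was -0.21 over the 10 genes and -0.017 over all tested genes. In bulk RNA, fewer cells of a type and less RNA per cell cannot be told apart.

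Smooth muscle α-actin (Acta2, ENSRNOG00000058039), the actin of the contractile filament, read 1126, 778 and 915 CPM (counts scaled to library size, with TMM factors) in the Control libraries. It read 631, 608 and 711 CPM with PDGF-BB, and 794, 824 and 744 CPM with PDGF-BB+PTUPB. Every PDGF-BB library lay below every Control library, and the PTUPB libraries lay above PDGF-BB but within the Control range or just below it. The fall with PDGF-BB was 1.45-fold, a log2 change of -0.53 ± 0.13 (SE, edgeR adjusted p = 0.00898), and it was called in all 20 alternative analyses. Between PDGF-BB+PTUPB and PDGF-BB the log2 difference was 0.28 ± 0.13 (edgeR adjusted p = 0.158), which missed the threshold.

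**Figure D1:**
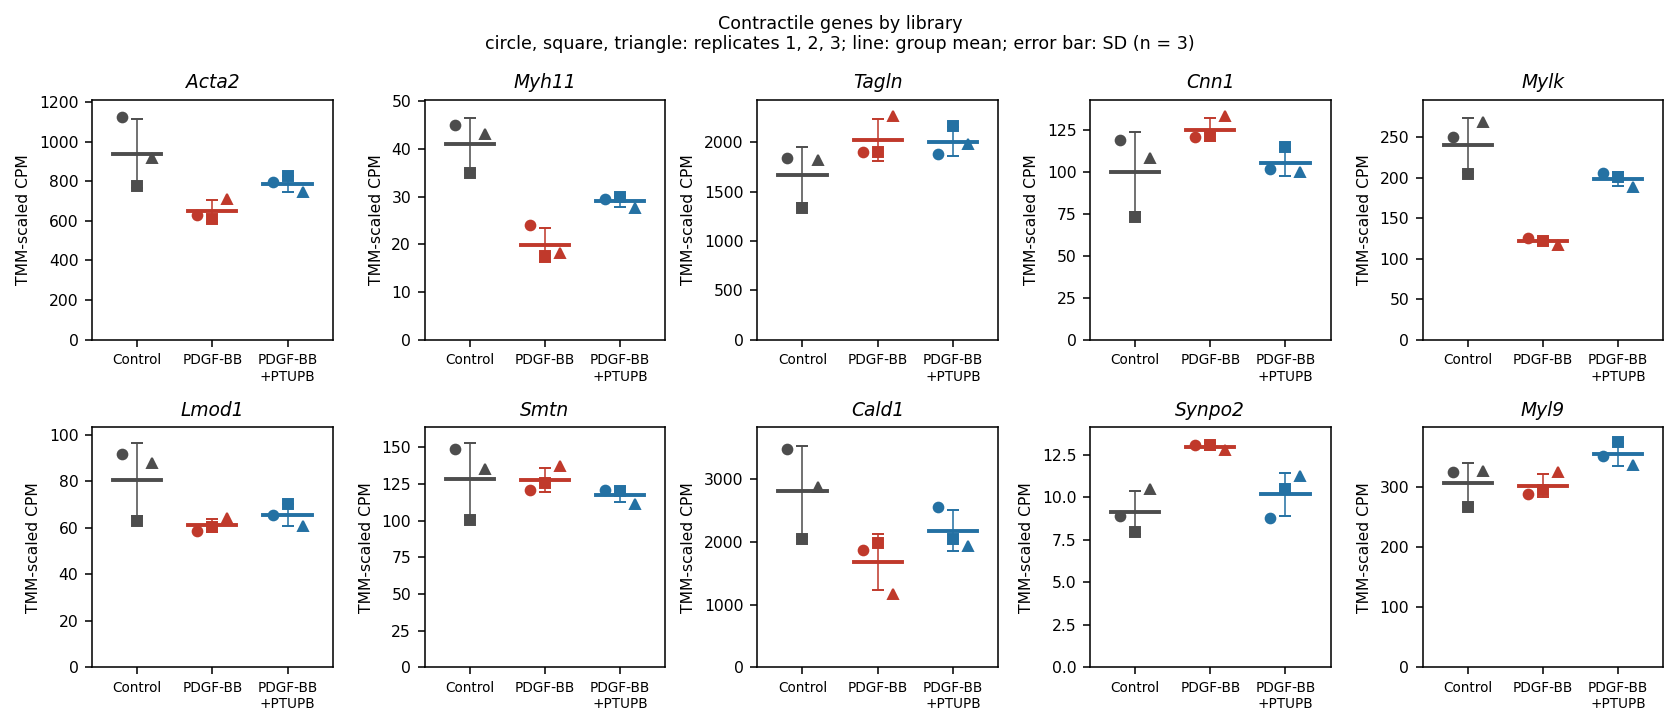
TMM-scaled CPM of the 10 contractile genes in each of the 9 libraries, with group means and SD (n = 3) and every axis starting at 0. All 3 PDGF-BB libraries lie below both other groups for Acta2, Myh11 and Mylk, and above both for Cnn1 and Synpo2. The square of Control replicate 2 is the lowest Control point in every panel.

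Leiomodin 1 (Lmod1, ENSRNOG00000051548), which nucleates actin filaments in smooth muscle, read 91.6, 62.8 and 87.7 CPM in Control. It read 58.6, 60.1 and 64.3 CPM with PDGF-BB and 65.5, 70.1 and 60.7 CPM with PDGF-BB+PTUPB. PDGF-BB replicate 3 lay above Control replicate 2, so these groups overlapped. Lmod1 fell by 0.40 ± 0.13 on the log2 scale (edgeR adjusted p = 0.0397), called in 8 of 20 alternatives. It missed the threshold without Control replicate 1 (-0.30, adjusted p = 0.141) or 3 (-0.34, 0.133), PDGF-BB replicate 1 (-0.37, 0.108) or 2 (-0.38, 0.0967), or PDGF-BB+PTUPB replicate 1 (-0.40, 0.0585) or 2 (-0.40, 0.0539). The PTUPB libraries differed from PDGF-BB by 0.10 ± 0.13 (adjusted p = 0.639), the smallest such difference among the 5 genes that fell.

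The myosin heavy chain of the thick filament fell with PDGF-BB. Myh11 (ENSRNOG00000057880), the smooth muscle myosin heavy chain and the most specific marker of the differentiated cell, read 45.1, 34.9 and 43.1 CPM in Control and 24.0, 17.6 and 18.2 CPM with PDGF-BB. With PDGF-BB+PTUPB it read 29.6, 29.9 and 27.7 CPM. The groups did not overlap in any of the 3 comparisons, and the PTUPB libraries lay between the others. Myh11 fell 2.06-fold with PDGF-BB (log2 change -1.04 ± 0.14, edgeR adjusted p = 0.000326) and rose 1.46-fold with PTUPB over PDGF-BB (0.54 ± 0.14, adjusted p = 0.0210). The first call held in all 20 alternatives and the other in 16, since it was lost without PDGF-BB replicate 2 (0.45, adjusted p = 0.0839) or 3 (0.48, 0.0543), or without PDGF-BB+PTUPB replicate 1 (0.53, 0.0715) or 2 (0.52, 0.0727).

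Mylk (ENSRNOG00000002215), the kinase that phosphorylates the regulatory light chain, had the smallest adjusted p of the 10 genes in both comparisons with PDGF-BB. It read 249.8, 204 and 269 CPM in Control, 125, 122 and 117 CPM with PDGF-BB, and 206, 201 and 188 CPM with PDGF-BB+PTUPB. The PDGF-BB libraries spanned only a few CPM and stood far below the rest, and PTUPB replicate 1 reached above Control replicate 2. The fall was 1.98-fold (log2 change -0.99 ± 0.10, edgeR adjusted p = 7.6e-05) and the rise with PTUPB 1.63-fold (0.71 ± 0.099, adjusted p = 0.00197). Both were called in all 20 alternatives. Because counts are per gene, reads of the kinase and of telokin, a short product of the same locus, were not separated.

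Myl9 (ENSRNOG00000020246), the regulatory light chain on which that kinase acts, passed the test in neither comparison. Its libraries read 325, 266 and 325 CPM in Control, 287, 294 and 324 CPM with PDGF-BB, and 351, 374 and 336 CPM with PDGF-BB+PTUPB. Control and PDGF-BB overlapped, with a log2 difference of -0.018 ± 0.094 (edgeR adjusted p = 0.904) whose sign depended on the setting. All PTUPB libraries lay above all others, yet the log2 difference from PDGF-BB of 0.23 ± 0.094 missed the threshold (adjusted p = 0.123). That difference passed without Control replicate 2 (0.23, adjusted p = 0.0442).

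Long genes read lower with PDGF-BB across the whole table. Of 5 equal bins of tested genes by exon length, the longest, from 3998 bases up, had a median log2 change of -0.20 with PDGF-BB, and the shortest 0.18. Mylk (8016 bases), Myh11 (6693), Lmod1 (4501), Cald1 (4465) and Synpo2 (4147) are in the longest bin, and Myl9 (1104) and Tagln (1254) in the shortest. With the length trend of each library removed, the PDGF-BB change was -0.77 for Myh11, -0.66 for Mylk, -0.66 for Acta2, -0.59 for Cald1 and 0.64 for Synpo2, all called. That of Lmod1 was -0.24 (edgeR adjusted p = 0.158) and no longer passed, and with PTUPB over PDGF-BB Mylk (0.54, adjusted p = 0.0022) and Myh11 (0.40, 0.0364) were called higher and Synpo2 (-0.43, 0.0474) lower.

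Caldesmon (Cald1, ENSRNOG00000010233), which restrains myosin on the actin filament, varied widely between libraries of a group. It read 3494, 2056 and 2877 CPM in Control, 1881, 1993 and 1176 CPM with PDGF-BB, and 2563, 2042 and 1945 CPM with PDGF-BB+PTUPB. Control and PDGF-BB did not overlap, although Control replicate 2 stood close to PDGF-BB replicate 2, and PDGF-BB replicate 3 was well below its group. The fall was a log2 change of -0.74 ± 0.23 (edgeR adjusted p = 0.0303). It was called in 16 of 20 alternatives and lost without Control replicate 1 (-0.55, adjusted p = 0.114), Control replicate 3 (-0.72, 0.0784) or PDGF-BB replicate 3 (-0.54, 0.0706), or in a fit of only these groups (-0.71, 0.0803). The PTUPB difference from PDGF-BB was 0.37 ± 0.23 (adjusted p = 0.287). The smooth muscle and the widely expressed forms of caldesmon come from this locus and were counted together.

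Calponin 1 (Cnn1, ENSRNOG00000027736) and transgelin (Tagln, ENSRNOG00000017628), actin-binding proteins widely used as contractile markers, were not among the genes that fell with PDGF-BB. Cnn1 read 119, 73.3 and 108 CPM in Control, 121, 121 and 133 CPM with PDGF-BB, and 102, 115 and 100.3 CPM with PDGF-BB+PTUPB. All PDGF-BB libraries were above all others, but the log2 difference from Control of 0.32 ± 0.15 did not pass (edgeR adjusted p = 0.129). Tagln read 1843, 1340 and 1821 CPM in Control, 1904, 1906 and 2270 CPM with PDGF-BB, and 1880, 2169 and 1980 CPM with PDGF-BB+PTUPB. Both treated groups lay above Control, by 0.28 ± 0.13 (adjusted p = 0.127) and 0.27 ± 0.13 (adjusted p = 0.407). Without Control replicate 2 and PDGF-BB replicate 3 the PDGF-BB difference was 0.093 for Cnn1 and 0.056 for Tagln.

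Smoothelin (Smtn, ENSRNOG00000019451), a cytoskeletal protein of contractile smooth muscle, read 149, 100.2 and 135 CPM in Control, 121, 126 and 137 CPM with PDGF-BB, and 121, 120.4 and 112 CPM with PDGF-BB+PTUPB. The groups overlapped except that all PTUPB libraries lay just below all PDGF-BB libraries. The log2 difference between PDGF-BB and Control was -0.00040 ± 0.13 (edgeR adjusted p = 0.999). With Control replicate 2 and PDGF-BB replicate 3 both left out it was -0.20 (adjusted p = 0.0448), so the reading of this gene rests on those libraries.

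Synaptopodin-2 (Synpo2, ENSRNOG00000014867), an actin-binding protein of dense bodies and Z-discs, was the one member called higher. It read 8.89, 7.97 and 10.5 CPM in Control, 13.1, 13.1 and 12.7 CPM with PDGF-BB, and 8.79, 10.5 and 11.2 CPM with PDGF-BB+PTUPB. All PDGF-BB libraries lay above all others, and the PTUPB libraries overlapped Control. The rise was 1.42-fold (log2 change 0.51 ± 0.14, edgeR adjusted p = 0.0175) and was called in 18 of 20 alternatives, but not without Control replicate 1 (0.49, adjusted p = 0.0515) or without Control replicate 2 together with PDGF-BB replicate 3 (0.43, 0.0552). The difference of PDGF-BB+PTUPB from PDGF-BB was -0.35 ± 0.14 (adjusted p = 0.107). This gene had the fewest counts of the 10, 1373 over all libraries.

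With PTUPB, 2 of 10 genes were called higher than with PDGF-BB, Mylk and Myh11, and 0 lower, against 8.28% higher and 10.0% lower among all tested genes. Without PDGF-BB replicate 2 or 3, or PDGF-BB+PTUPB replicate 1 or 2, Mylk alone was called. In that order, these fits called 5.56%, 7.73%, 4.13% and 4.42% of all tested genes higher. In the main fit, the members called lower with PDGF-BB all had a positive log2 difference here, from 0.10 for Lmod1 to 0.71 for Mylk. Synpo2 had a negative one. These signs are no separate evidence, because both comparisons share the PDGF-BB libraries. Without Control replicate 2 and PDGF-BB replicate 3, Acta2 (0.35, edgeR adjusted p = 0.0179) and Myl9 (0.28, adjusted p = 0.00774) passed as well, for 4 genes called, in a fit that called 12.3% of all tested genes higher.

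**Figure D2:**
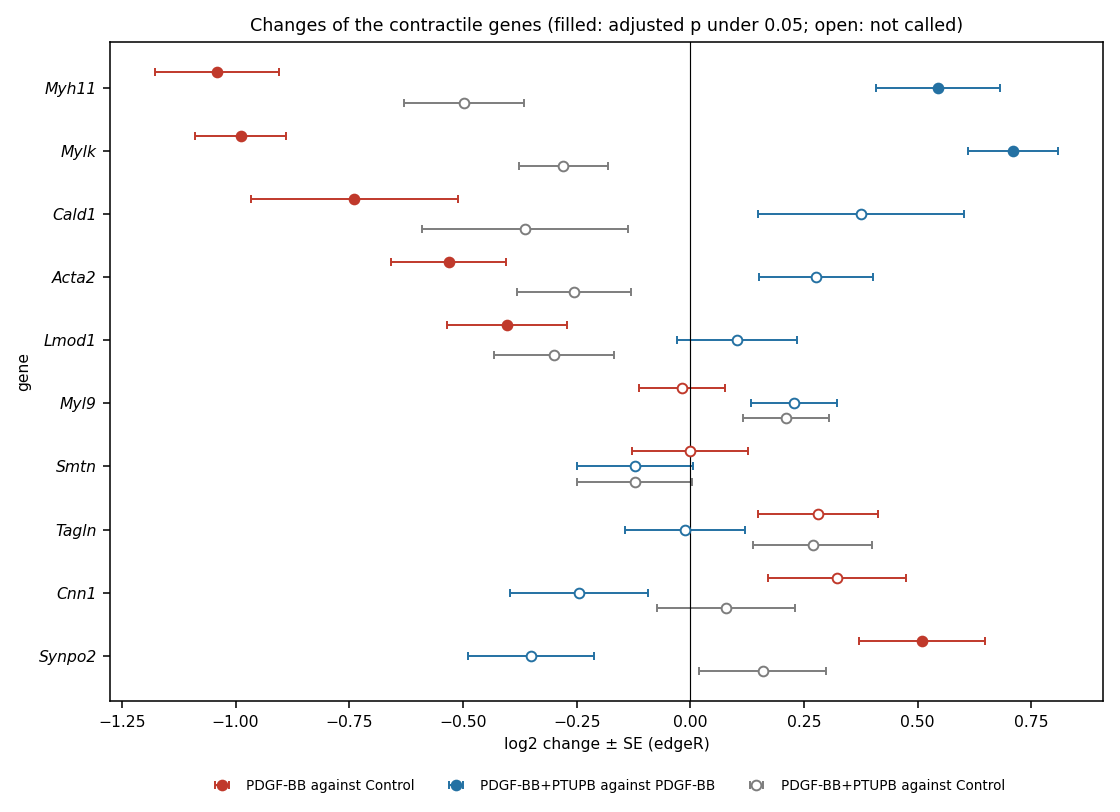
Log2 change ± SE of each contractile gene from edgeR in the 3 comparisons, ordered by the PDGF-BB change, with filled symbols for adjusted p under 0.05. From Myh11 (-1.04) to Lmod1 (-0.40) the PDGF-BB symbols are filled below 0, and only Mylk and Myh11 have a filled symbol for PTUPB over PDGF-BB.

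Compared with Control, PDGF-BB+PTUPB gave 0 called members with edgeR, against 1.89% higher and 0.313% lower among all tested genes. At an unadjusted edgeR p under 0.05, Myh11, Mylk and Lmod1 were lower and Myl9 higher, against 625 lower and 907 higher of 11197 tested genes. DESeq2 called 1 member, Myh11, lower (-0.50, DESeq2 adjusted p = 0.0336). Over the whole table, DESeq2 called 113 of 11186 genes lower and 328 higher, while edgeR called 35 lower. Myh11 stood at -0.50 ± 0.13 (edgeR adjusted p = 0.105), Cald1 at -0.36 ± 0.23, Lmod1 at -0.30 ± 0.13, Mylk at -0.28 ± 0.098 and Acta2 at -0.25 ± 0.13. The result depended on Control replicate 2. Without it, Myh11 (-0.60, adjusted p = 0.0416), Mylk (-0.39, 0.0286) and Lmod1 (-0.45, 0.0313) were called lower. Without it and PDGF-BB replicate 3, 6 members were lower: these 3 with Acta2 (-0.37), Smtn (-0.27) and Cald1 (-0.55). Many more genes of the whole table were called in these fits, 1.31% of them lower in the first and 6.21% in the other.

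A ratio between genes of 1 library does not depend on how libraries are scaled, so the members were also set against Tagln, the most abundant per length, a choice made after the values were seen. Counts per exon length of Acta2 relative to Tagln were -0.86, -0.93 and -1.14 on the log2 scale in Control, -1.74, -1.80 and -1.82 with PDGF-BB, and -1.39, -1.55 and -1.56 with PDGF-BB+PTUPB. In this ratio Control replicate 2 lay inside its group, as it did for Smtn, and the 3 groups were separate. That library was the lowest of Control in the ratios of Cnn1, Lmod1 and Cald1. It was the highest in those of Myh11, Mylk, Synpo2 and Myl9. For Mylk the ratios were -5.56, -5.39 and -5.44 in Control, -6.60, -6.64 and -6.96 with PDGF-BB, and -5.86, -6.11 and -6.07 with PTUPB, again without overlap.

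The mean ratio of PDGF-BB to Control differed by -1.34 for Myh11, -1.27 for Mylk, -1.03 for Cald1, -0.81 for Acta2 and -0.68 for Lmod1, and by -0.30 for Myl9 and -0.27 for Smtn. None of these groups overlapped, while those of Cnn1 (0.059) and Synpo2 (0.23) did. Between PDGF-BB+PTUPB and Control the ratios still differed by -0.77 for Myh11, -0.62 for Cald1, -0.57 for Lmod1, -0.55 for Mylk, -0.52 for Acta2, -0.39 for Smtn and -0.18 for Cnn1 without overlap. These ratios say that members changed unequally, not that Tagln held its level, and they were not tested. Tagln alone stood 0.28 above Control with PDGF-BB and 0.27 with PDGF-BB+PTUPB on the log2 scale, without overlap in either case. A higher Tagln value lowers each ratio to it. Myl9 and Smtn alone stood at -0.018 and -0.00040 with PDGF-BB, so their lower ratios are no called fall of these genes. Between PDGF-BB+PTUPB and Control, Smtn alone stood at -0.12 and Cnn1 at 0.078, and edgeR called no member in the main fit. The lower ratios of that comparison are therefore no called falls either. How many genes of the whole table separate from Control in a ratio to Tagln was not counted, so the separations are no result about these members. Tagln is in the shortest length bin, whose median log2 change with PDGF-BB was 0.18, Smtn in one with a median of -0.070, and Myh11, Mylk, Lmod1 and Cald1 in the longest (-0.20), and the part of length in these ratios was not tested.

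**Figure D3:**
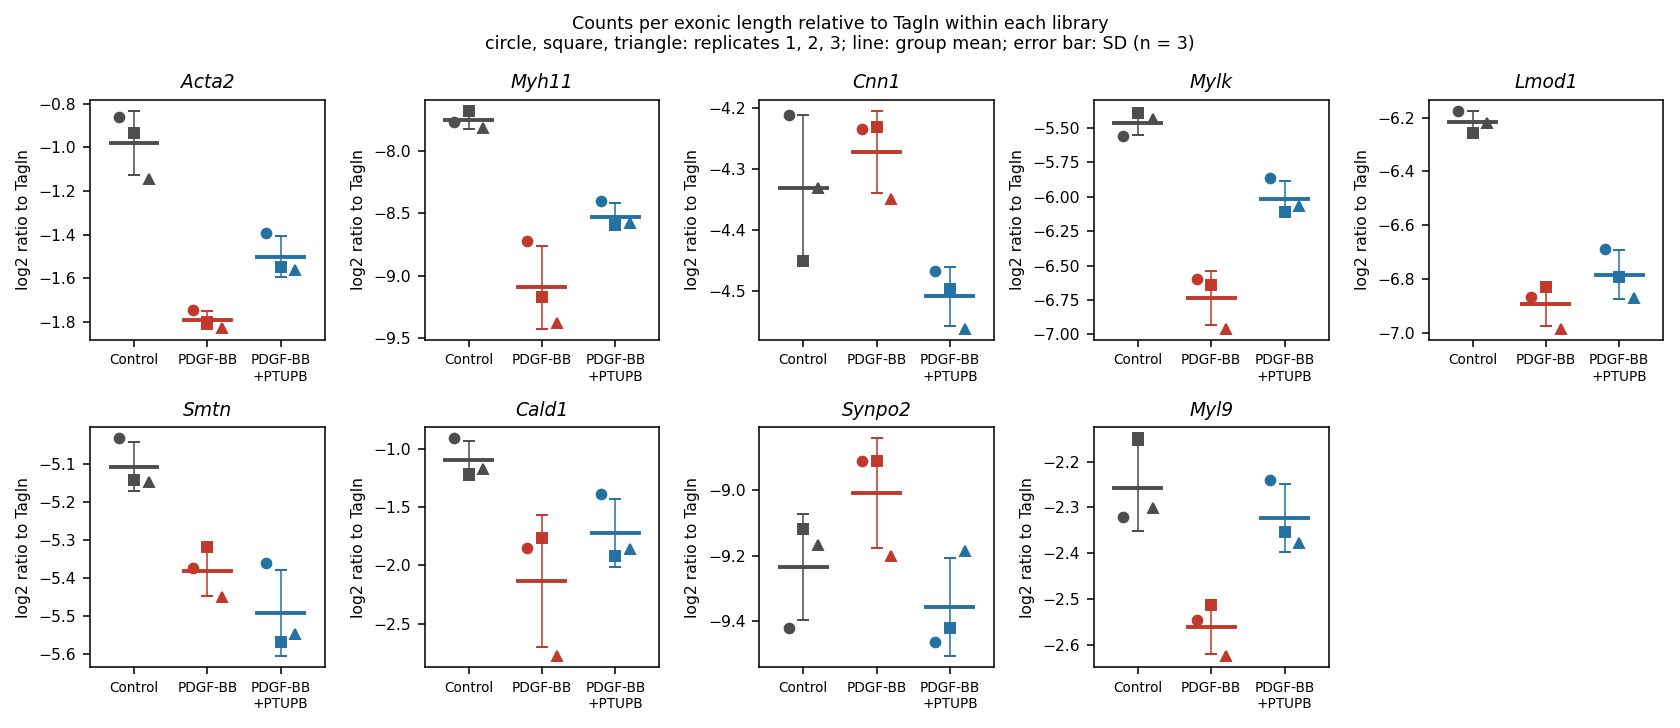
Log2 ratio of each member to Tagln, in counts per exon length, in each library, with group means and SD (n = 3) on axes that do not start at 0. Acta2, Myh11 and Mylk fall into 3 separate groups with PDGF-BB lowest, and the PTUPB points of Lmod1 overlap those of PDGF-BB.

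Each smooth muscle form was then set against the other members of its protein family, as its share of their summed FPKM. Acta2 made up 12.6%, 12.4% and 11.7% of actin FPKM in Control, 9.46%, 8.99% and 8.49% with PDGF-BB, and 11.6%, 11.9% and 11.2% with PDGF-BB+PTUPB. The PDGF-BB libraries lay below both other groups, which overlapped. The other actins were almost wholly Actb and Actg1, at 3431 and 1290 FPKM in Control, and neither was called in any comparison. Acta1 was under 2 FPKM, Actg2 under 1, and Actc1 had 0 counts.

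Myh11 was 17.0% ± 1.63 of the summed FPKM of Myh11, Myh9 and Myh10 in Control, 9.79% ± 1.42 with PDGF-BB and 14.5% ± 0.45 with PDGF-BB+PTUPB (SD, n = 3). The row for Myh9, a nonmuscle heavy chain, averaged 0.35 to 0.43 FPKM, so the share was set by Myh11 against Myh10 (29.4 FPKM in Control). The Myh9 row had 306 counts over all libraries. Whether it holds all reads of Myh9 was not tested, so these shares describe the rows only. The Myl9 share of its light chains was 23.9% ± 1.08 in Control, 18.4% ± 0.78 with PDGF-BB and 24.3% ± 1.16 with PDGF-BB+PTUPB. Here the partner moved, since Myl12a, a nonmuscle regulatory light chain, rose with PDGF-BB (log2 change 0.54 ± 0.097, edgeR adjusted p = 0.00204) and fell with PTUPB (-0.33 ± 0.097, adjusted p = 0.0380).

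In 2 families the smooth muscle form took a larger share with PDGF-BB. Cnn1 was 13.2% ± 2.67 of calponin FPKM in Control, 18.0% ± 0.34 with PDGF-BB and 14.3% ± 0.57 with PDGF-BB+PTUPB. Synpo2 was 6.77% ± 1.09, 11.7% ± 0.39 and 8.44% ± 1.59 of Synpo2 and Synpo together. Tagln made up 64.9% ± 4.60, 64.7% ± 0.46 and 66.6% ± 1.79 of transgelin FPKM in the same order, with overlapping groups. The Cnn1 share in Control was 15.1%, 10.2% and 14.5% in replicates 1, 2 and 3, so its mean was lowered by Control replicate 2. Cnn1 itself was not called with PDGF-BB, and its partner Cnn3 stood at -0.23 ± 0.083 (edgeR adjusted p = 0.0556). For the families other than transgelin, PDGF-BB did not overlap Control or PDGF-BB+PTUPB. Each of these differences gave an exact two-sided permutation p of 0.1, the smallest that 3 libraries against 3 allow, and 0.164 after Benjamini-Hochberg adjustment over 18 comparisons, so none can pass. Among all tested genes, edgeR called 17.3% higher and 15.8% lower with PDGF-BB, which is not a rate of groups without overlap. How many other gene families set PDGF-BB apart from both other groups was not counted, so the separation is no result about these families. Actin and light chain paralogues are alike in sequence, and reads could be split among them in the counting.

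**Figure D4:**
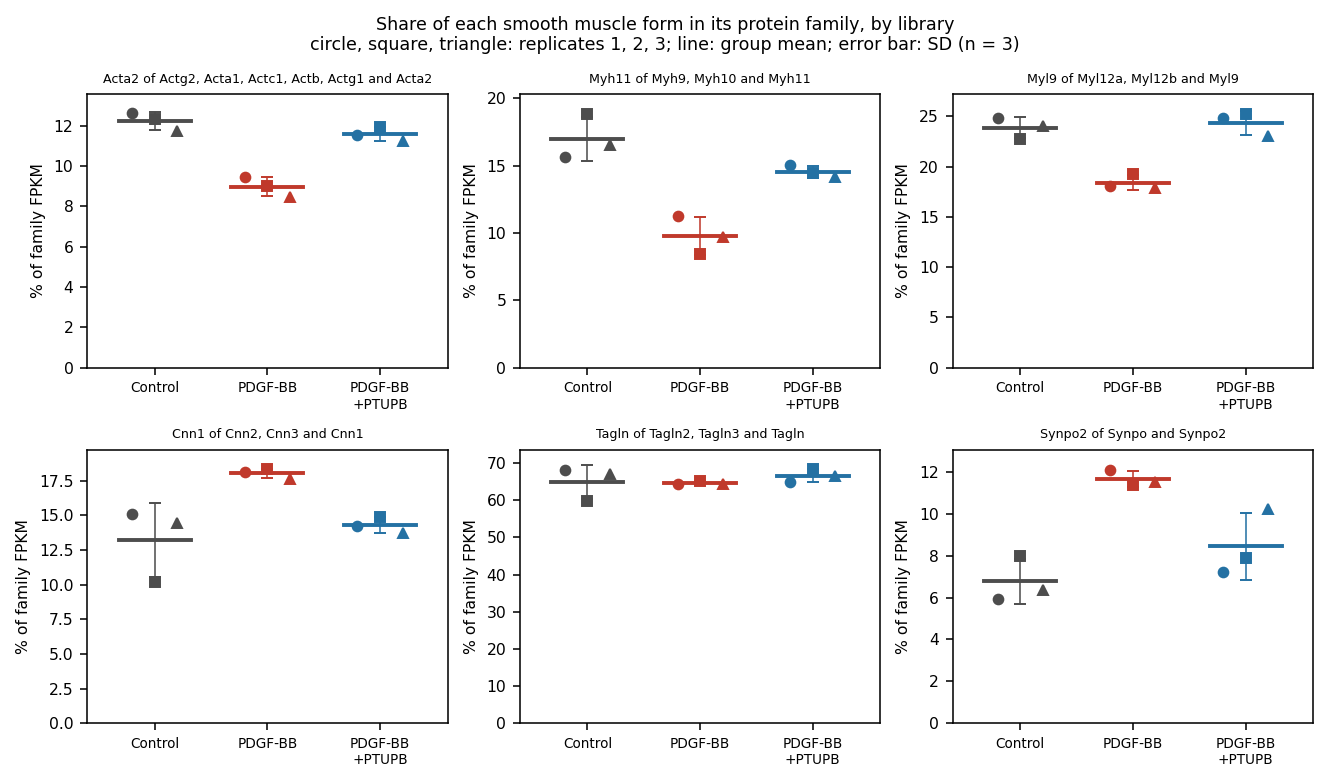
Share of Acta2, Myh11, Myl9, Cnn1, Tagln and Synpo2 in the summed FPKM of its family in each library, in percent from 0, with group means and SD (n = 3). The PDGF-BB points are lowest for Acta2 (8.98%), Myh11 (9.79%) and Myl9 (18.4%), highest for Cnn1 and Synpo2, and overlap the others for Tagln.

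Upstream sequence was taken from a RefSeq-derived table (build GRCr8) with windows for 6 of the 10 genes, Cald1 with 2, and the others were not analysed here. The 250 bases before the start are shown for Acta2 and Mylk, which fell, and for Synpo2, which rose, with CArG-like stretches in capitals. A CArG box, the element bound by serum response factor, is CC, 6 bases of A or T, and GG; a CArG-like stretch has 1 of the 6 inner bases C or G, a form added after the windows were read. Acta2 lies at chr1:241172504-241172753, Mylk at chr11:79498575-79498824 and Synpo2 at chr2:214055845-214056094, all on the minus strand.
Acta2: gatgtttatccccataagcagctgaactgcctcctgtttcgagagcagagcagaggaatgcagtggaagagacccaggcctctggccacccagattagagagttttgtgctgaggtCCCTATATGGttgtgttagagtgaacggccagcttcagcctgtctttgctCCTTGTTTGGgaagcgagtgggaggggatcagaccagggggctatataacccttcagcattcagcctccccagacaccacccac
Mylk: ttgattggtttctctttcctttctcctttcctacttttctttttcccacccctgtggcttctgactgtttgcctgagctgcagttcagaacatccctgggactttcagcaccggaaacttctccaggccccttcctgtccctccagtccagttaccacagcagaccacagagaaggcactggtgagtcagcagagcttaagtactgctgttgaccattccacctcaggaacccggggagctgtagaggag
Synpo2: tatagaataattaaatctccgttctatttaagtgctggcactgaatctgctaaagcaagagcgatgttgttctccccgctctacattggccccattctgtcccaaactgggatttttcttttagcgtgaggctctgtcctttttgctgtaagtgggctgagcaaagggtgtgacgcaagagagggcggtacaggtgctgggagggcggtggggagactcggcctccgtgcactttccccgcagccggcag
Acta2 held CArG-like stretches 134 to 125 and 84 to 75 bases before the start, CCCTATATGG and CCTTGTTTGG. No other window of these genes held one, and none held an exact CArG box. On both strands, 1.497% of all 33469 windows of this length held a CArG box and 6.84% a CArG-like stretch. GGGCGG, in 30.5% of windows, was found at 2 places each in Synpo2 and Smtn and at 1 in Cald1. CATTCC, in 12.1% of windows, was found in Mylk and, on the other strand, in Acta2 and Cald1, and 5 of the 6 genes held CANNTG (65.5%). A match describes these letters only, and the table's start may not be the start used in these cells.

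The pathway counts that follow are to be read against all tested genes, of which 17.3% were higher and 15.8% lower with PDGF-BB, and 8.28% higher and 10.0% lower with PTUPB over PDGF-BB. Shares near these, such as 2 of 11 or 5 of 24 genes with PDGF-BB and 2 of 16 with PTUPB, are no result about a list. Of the transcription factors listed with serum response factor and myocardin, Srf fell with PDGF-BB (log2 change -0.29 ± 0.099, edgeR adjusted p = 0.0472), as did Foxo4 (-0.44 ± 0.094, adjusted p = 0.00578). These were 2 of 11 tested factors, and 0 rose; with PTUPB over PDGF-BB 0 were called. Klf4, a repressor of contractile genes, stood at -0.24 ± 0.087 (adjusted p = 0.0570), and Mrtfa, a coactivator of serum response factor, at 0.047 ± 0.14 (adjusted p = 0.818).

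Of 16 tested genes of myosin chains and their regulation, 5 rose and 0 fell with PDGF-BB, and 2 fell and 0 rose with PTUPB over PDGF-BB. Among them Rhoa (0.32 ± 0.073), which encodes a GTPase, rose with PDGF-BB (edgeR adjusted p = 0.00741). Of 8 tested actins, tropomyosins and related genes, the tropomyosin Tpm3 rose with PDGF-BB (0.65 ± 0.097) and fell with PTUPB (-0.60 ± 0.097), where Tpm4 also fell (-0.36 ± 0.11). Of 4 tested paralogues, Tagln2 rose with PDGF-BB (0.32 ± 0.087).

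Genes of dense bodies, intermediate filaments and caveolae were mixed, with 5 of 24 higher and 7 lower with PDGF-BB. The LIM protein gene Fhl1 (-0.95 ± 0.10) and Parva (-0.60 ± 0.077), a partner of integrin-linked kinase, fell, and Csrp2 (2.35 ± 0.20) and the integrin gene Itga5 (0.57 ± 0.066) rose (edgeR adjusted p at most 0.000301). With PTUPB over PDGF-BB, 4 rose and 6 fell, among them Parva upward (0.48 ± 0.077) and the caveolin gene Cav1 downward (-0.57 ± 0.092). Csrp2 (1.13 ± 0.20) and Vim (0.57 ± 0.12), which encodes vimentin, were higher and Fhl1 (-0.47 ± 0.099) lower in PDGF-BB+PTUPB than in Control (edgeR adjusted p at most 0.0384). Of 11 signalling and channel genes, 4 fell and 2 rose with PDGF-BB, the falls being Fbxo32 (-1.65 ± 0.17), Mrvi1 (-1.43 ± 0.22), Cacna1c (-1.26 ± 0.22), the pore subunit of the L-type calcium channel, and Aoc3 (-0.69 ± 0.12). Fbxo32 (1.54 ± 0.17), Aoc3 (0.74 ± 0.12) and Mrvi1 (0.82 ± 0.22) rose with PTUPB, and Susd5 fell (-1.08 ± 0.30).

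Markers of other states moved with these groups. Of 7 tested adventitial fibroblast markers, 5 fell with PDGF-BB and 4 rose with PTUPB over PDGF-BB, with median log2 changes of -0.97 and 0.61, the same directions as Myh11 and Mylk. Summed FPKM of 5 proliferation genes was 64.6 to 77.8 in Control, 242 to 308 with PDGF-BB and 126 to 159 with PDGF-BB+PTUPB. Egfl7 was higher with PTUPB than with PDGF-BB (log2 difference 0.32 ± 0.095, edgeR adjusted p = 0.0429). Lyz2 fell with PDGF-BB (-1.80 ± 0.24, edgeR adjusted p = 0.000343) and rose with PTUPB (1.61 ± 0.24, adjusted p = 0.00234), while Cd68 was not called. Of 3 tested pericyte markers, 1 rose and 2 fell with PDGF-BB. The part of all these markers in the contractile results was not tested.

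The 10 genes did not vary as one block. Over the 9 libraries, on log2 CPM, Myh11 ran with Mylk (Pearson r = 0.95), Acta2 with Lmod1 (0.91) and Tagln with Cnn1 (0.86), whereas Mylk ran against Synpo2 (-0.78) and Acta2 showed little relation to Tagln (-0.13). These are descriptions over libraries that share group and length trends. The genes most like each member by the same measure were Lrp1 (0.993) and Cemip (0.992) for Mylk, Morc2 (0.986) and Exoc8 (0.978) for Myh11, and Rab22a (0.977) and Cryab (0.974) for Acta2. For Lmod1 they were Piezo1 (0.991) and Tln1 (0.989), for Cald1 Filip1l (0.992) and Ankrd17 (0.985), and for Synpo2 Aass (0.987) and RT1-T24-1 (0.976). Tagln was nearest to Adgrg1 (0.948) and Plod3 (0.936), Cnn1 to Cep164 (0.974) and Map4 (0.971), Smtn to Prkar2a (0.965) and Itga3 (0.965), and Myl9 to Ccnq (0.934) and Pdgfa (0.932).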

How the data were processed

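The authors deposited 1 table with an expected count and an FPKM for each gene and library, per the file headers. Per the submitters' processing notes, cutadapt 1.9.1, HISAT2 2.0.1 and HTSeq 0.6.1 were used. Those notes give the mouse build mm10 although every one of the 32623 gene identifiers is rat, so no coordinates of the table are printed. Counts were not whole for 978 genes, none of them a member. The strand used in counting is not given in the sources used here. Column letters (C, P, P-PT) were read as the 3 groups. Coordinates of RefSeq windows are on GRCr8.

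Counts were rounded and fitted with edgeR 4.0.16 in R 4.3.3, by the quasi-likelihood F test after TMM scaling, with no term but group. The fit covered 9 libraries with 6 residual degrees of freedom. Tests were two-sided, with Benjamini-Hochberg adjustment over 11197 genes. The common biological coefficient of variation was 0.137. An SE is the absolute log2 change divided by the square root of F. The fit was tested on simulated data with independent genes, no length trend and no deviating library, so that run does not cover these features. FPKM, deposited per exon length, was used for levels between genes and for family shares. The 10 genes, the gene lists and the tests were chosen with earlier results of these data known. Genes named beyond the 10 were the called list members with the smallest p, up to 4 per list and comparison (or the 2 most abundant where none was called, not all printed), their protein families, and the 2 genes most correlated with each member. Alternatives were other scalings, DESeq2 1.42.0, limma 3.58.1 on log2(FPKM + 1) and log2(FPKM + 0.1), other filters, only the groups compared, a replicate block, a length correction, and leaving out libraries. List symbols Myl6b, Prkg1, Calm3, Irag1, Mkl1, Mrtfb, Mkl2, Pecam1 and Ly6c were not analysed here. Some genes that the naming rule would give are not reported here. Precision is limited by 3 libraries a group.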

Additional observations from a re-analysis of the deposited data

How the results depend on the processing

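Over 20 alternatives, 536 of 600 member values kept their sign and side of the threshold. Members called in PDGF-BB against Control numbered 3 to 6 when libraries were left out in turn, with 3 without Control replicate 1. In PDGF-BB+PTUPB against PDGF-BB they numbered 1 to 3, and 4 in the fit that left out both Control replicate 2 and PDGF-BB replicate 3. Against Control they numbered 0 to 3, with 1 by DESeq2 and 6 without both. Genes called ranged over single left-out libraries from 1002 to 2463 for PTUPB over PDGF-BB and from 93 to 340 for PTUPB over Control, where DESeq2 called 441 and the fit without both libraries 1345. The cause was not tested. With library totals in place of TMM, the 1942 higher and 1772 lower calls of PDGF-BB against Control became 2410 and 1350, and the 927 and 1121 of PTUPB over PDGF-BB became 760 and 1414. Values near 0 changed sign. Smtn with PDGF-BB read 0.072 with library totals, 0.084 and 0.086 with limma, 0.0020 with no filter, 0.0069 with at least 10 counts, 0.023 with only the groups compared, 0.010 with the replicate block and 0.084 with the length trend removed (-0.15 to 0.12 without single libraries). Myl9 read 0.053 with library totals, 0.056 and 0.056 with limma and 0.0062 with only the groups compared (-0.11 to 0.030). With PTUPB over PDGF-BB, Tagln read 0.054 with the length trend removed and 0.077 without both libraries (-0.070 to 0.077). Cnn1 in PTUPB against Control read -0.10 without both (-0.10 to 0.22). Same-numbered libraries correlated between -0.24 and 0.18 in their deviations, and differently numbered ones between -0.23 and 0.23. These values cannot decide whether the numbers pair libraries, because the deviations also hold the length trends of Control replicate 2 and PDGF-BB replicate 3. With the replicate block, 5, 2 and 0 members and 3294, 1602 and 168 genes were called in the 3 comparisons. Lmod1 with PDGF-BB then missed the threshold (edgeR adjusted p = 0.0664).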
